A study of Mus musculus with 16 samples.

Results

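The CCN family of matricellular proteins was followed through the 4 groups of the series by the gene names Ctgf, Cyr61, Nov, Wisp1 and Wisp2. Of these 5 genes, 4 (Ctgf, Cyr61, Wisp1 and Wisp2) had a row among the 13015 genes of the deposited table. Nov, and Wisp3, which was looked for as well, had no row and were not analysed here. The RNA came from NIH/3T3 cells, an established line of mouse embryonic fibroblasts. The cells received either a control siRNA (siControl) or an siRNA directed at Apc (siAPC), the gene for a scaffold protein of the beta-catenin destruction complex that also binds microtubules. All 4 groups shared the same handling. Serum was withheld, the cells sat for 2 h on a polycarbonate membrane with 3.0 µm pores, lysophosphatidic acid (LPA, a serum lipid that draws fibroblasts toward it) was present below the membrane for 1 h, and 0.3% paraformaldehyde was applied for 10 min. Protrusions that had passed the pores (Ps) and the cell bodies above (CB) were collected from separate filters, after the other part was removed by hand. The groups were thus siAPC Ps, siAPC CB, siControl Ps and siControl CB, with 4 libraries each. The study calls the replicates independent, and the model is limited to 1 cell line with a partial knockdown.

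CCN proteins are secreted into the space around the cell, where they bind integrins, heparan sulphate proteoglycans and growth factors rather than forming fibres. They are built from an insulin-like growth factor binding protein domain, a von Willebrand factor type C domain, a thrombospondin type 1 domain and, in most members, a C-terminal cystine knot that Wisp2 lacks. Ctgf (also called Ccn2) and Cyr61 (Ccn1) are induced within a short time by serum, LPA and TGF-beta and are standard targets of the transcription factors YAP and TEAD. Wisp1 (Ccn4) and Wisp2 (Ccn5) are named for their induction by Wnt1, and Wisp2 is also known as an RNA of growth-arrested fibroblasts.

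The 4 genes lie on 4 chromosomes of the mouse genome (GRCm38, GENCODE release M21), all as protein-coding genes. Ctgf is at chr10:24595442-24598683 on the plus strand, Cyr61 at chr3:145646976-145649981 on the minus strand, Wisp1 at chr15:66891320-66923201 on the plus strand and Wisp2 at chr2:163820861-163833146 on the plus strand. Their coding regions span 348 codons in Ctgf, 379 in Cyr61, 367 in Wisp1 and 251 in Wisp2. Gm15270, a gene on the opposite strand, overlaps Ctgf and had its own row. A strand setting for the counting is not given in the sources used here, so reads of this pair may not have been told apart. Its highest log2 value in any library was 1.77, below every library of Ctgf.

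Of the members, Cyr61 matched the RefSeq promoter table (GRCm38.p6), and its promoter is shown. The window holds 250 bases before the start of the gene and 50 after it, at chr3:145649936-145650235 on the minus strand, written 5′ to 3′. Capitals mark the matches to the motifs searched on both strands.
Cyr61 promoter: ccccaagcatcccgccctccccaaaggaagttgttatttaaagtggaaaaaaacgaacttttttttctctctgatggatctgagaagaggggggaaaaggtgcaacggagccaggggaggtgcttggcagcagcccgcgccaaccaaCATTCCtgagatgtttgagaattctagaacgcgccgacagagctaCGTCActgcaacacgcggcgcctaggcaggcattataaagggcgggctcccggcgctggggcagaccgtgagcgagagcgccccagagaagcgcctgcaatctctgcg
The search covered the TEAD motif CATTCC, the TCF/LEF motif CTTTGA, the CREB half-site TGACG and the SRF CArG box, by its name. The TEAD motif was found on the strand shown at position -103 from the start, and the CREB half-site was found on the other strand at -58. Neither the TCF/LEF letters nor a CArG box were in the window. Of 32851 promoters of this length in the table, 14.7% held the TEAD motif, 20.8% the CREB half-site, 16% the TCF/LEF motif and 1.63% a CArG box. A match describes letters and is not evidence of binding.

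Each library held between 13466225 and 20296087 reads in listed genes. Values are log2 CPM as deposited, where CPM sets a gene's reads against the scaled size of its library. The detection floor, set at 3 reads, lay between -2.73 and -1.80 on this scale. All listed members were above it in every library, with 61 reads (Cyr61 in 1 siControl CB library) as the lowest number. Apc itself was lower with siAPC by limma, the moderated linear model used throughout, with a log2 fold change of -1.67 in CB (adjusted p = 0.000142) and -1.84 in Ps (adjusted p = 3.11e-05). Of 9 fibroblast markers all 9 were listed, from Thy1 at a mean log2 value of -1.74 to Col1a1 at 13.08. With siAPC, 4 of the 9 were called higher and 1 lower in CB (median log2 fold change 0.34), and 4 higher and 0 lower in Ps (median 0.43), beside 7.52% higher and 5.87% lower of all genes in CB and 10.7% and 11.2% in Ps. The highest was Pdgfrb, a receptor for platelet-derived growth factor, at 1.05 and 1.24. In Ps against CB, 2 of the 9 were called higher and 6 lower with either siRNA (median -1.21 in siControl and -1.08 in siAPC), where 29.1% and 29.8% of all genes were called higher and 31.2% and 30.9% lower. Of the defining markers of other lineages, 0 of 3 adipocyte markers and 1 of 3 endothelial markers (Pecam1, mean log2 value -1.49) were listed, and the highest were the transcription factors Sox9 at 6.11 and Runx2 at 4.82. Runx2, the 1 listed of 4 osteoblast markers, was called higher with siAPC (log2 fold change 0.37 in CB and 0.61 in Ps), as were Ctgf, Wisp1 and Wisp2 below. Between fractions, the muscle marker Des was called higher in Ps (log2 fold change 0.67 in siControl and 0.49 in siAPC). Sox9 (-0.77 and -0.62), Runx2 (-0.55 and -0.32) and the leukocyte marker Cd68 (-0.41 and -0.46) were called lower in Ps. The part of the fibroblast markers and of these other markers in the results of the members was not tested. Set against the other replicates of their group, 4 libraries had lower values for GC-rich transcripts over 9882 genes, namely replicate 2 of siAPC Ps (Spearman correlation -0.65), of siAPC CB (-0.59) and of siControl Ps (-0.60) and replicate 3 of siControl CB (-0.52). Trends of the opposite sign reached 0.53 in replicate 3 of siAPC CB and 0.50 in replicate 4 of siAPC Ps. All members were also compared without these 4 libraries.

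Ctgf RNA showed the largest response of the family to Apc knockdown. In siControl CB its log2 CPM was 5.40, 5.40, 6.20 and 6.42 in replicates 1 to 4 (709 to 1701 reads). In siAPC CB it was 7.91, 7.89, 8.12 and 8.24 (4642 to 5422 reads). Every siAPC library was above every siControl library, and the siControl libraries spread more widely (SD 0.53) than the siAPC libraries (SD 0.17). Ctgf was 4.56-fold higher with siAPC in CB, a log2 fold change of 2.19 (SE 0.26, adjusted p = 7.59e-06). In siControl Ps the 4 libraries gave 4.61, 5.03, 5.94 and 5.97 (303 to 933 reads), and in siAPC Ps 7.30, 7.15, 7.31 and 7.48 (2108 to 3024 reads). Ctgf was 3.79-fold higher in Ps as well (log2 fold change 1.92, SE 0.26, adjusted p = 2.09e-05), again with no overlap. CB and Ps are fractions of cells given the same siRNA, so both comparisons describe 1 knockdown. In bulk material, more cells with an RNA and more RNA per cell cannot be told apart.

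Wisp2, the member without the cystine knot, rose more than 2-fold in both fractions. Its log2 CPM in siControl CB was 8.70, 8.70, 8.18 and 8.35, and in siAPC CB 9.75, 9.74, 9.68 and 9.70. The siAPC libraries had an SD of 0.04 and lay above all siControl libraries. The rise in CB was 2.35-fold (log2 fold change 1.23, SE 0.09, adjusted p = 2.11e-08). In Ps, siControl gave 8.30, 8.19, 8.13 and 8.07 and siAPC 9.52, 9.48, 9.36 and 9.43. That rise was 2.42-fold (log2 fold change 1.27, SE 0.09, adjusted p = 1.15e-08). The confidence intervals of Wisp2 were the narrowest of the family (95% interval of the log2 fold change 1.04 to 1.43 in CB and 1.08 to 1.47 in Ps).

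Wisp1, a Wnt1-induced member that binds decorin and biglycan, rose by less. In siControl CB its log2 CPM was 6.48, 6.45, 6.36 and 6.31, and in siAPC CB 7.17, 7.27, 6.79 and 6.90. No siAPC library overlapped siControl. The rise in CB was 1.55-fold (log2 fold change 0.63, SE 0.13, adjusted p = 0.00198). In siControl Ps the values were 6.02, 6.29, 5.78 and 5.82, and in siAPC Ps 7.13, 7.20, 6.78 and 6.70. The rise in Ps was 1.97-fold (log2 fold change 0.98, SE 0.13, adjusted p = 1.45e-05).

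Cyr61, an immediate early gene that supports adhesion through integrins, was not called with siAPC in either fraction. In siControl CB its log2 CPM was 1.98, 1.85, 3.30 and 3.48 in replicates 1 to 4 (66, 61, 228 and 206 reads), and in siAPC CB 2.61, 2.06, 2.62 and 2.43 (132, 81, 119 and 94 reads). In siControl Ps it was 2.64, 2.72, 5.04 and 4.92 (77, 80, 498 and 431 reads), and in siAPC Ps 3.39, 2.73, 3.87 and 3.87 (164, 98, 278 and 240 reads). In both fractions of siControl, replicates 3 and 4 were above replicates 1 and 2, and the siAPC libraries of CB fell between them. The log2 fold change with siAPC was -0.22 in CB (SE 0.49, adjusted p = 0.816, 95% interval -1.24 to 0.79) and -0.37 in Ps (SE 0.49, adjusted p = 0.663, 95% interval -1.38 to 0.65). These intervals allow changes of more than 1.5-fold in either direction, so the data do not show that Cyr61 stayed level.

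The siAPC minus siControl differences of Cyr61 between same-numbered libraries had no common sign. In CB they were 0.63, 0.20, -0.68 and -1.05 for replicate numbers 1 to 4, and in Ps 0.75, 0.01, -1.17 and -1.06. For Ctgf, whose siControl replicates 3 and 4 were also above replicates 1 and 2, all 4 differences were positive in CB (2.51, 2.49, 1.93 and 1.83) and in Ps (2.69, 2.12, 1.37 and 1.5). Any matching of libraries would give these signs. The Ctgf groups did not overlap, and the siAPC values of Cyr61 lay between siControl replicates 1 and 2 and replicates 3 and 4. Over all genes, the numbers did not pair siControl CB with siAPC CB (mean correlation -0.03). The labels give no batch or date for these replicates. The part of any batch in the spread of Cyr61 and Ctgf was not tested.

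**Figure D1:**
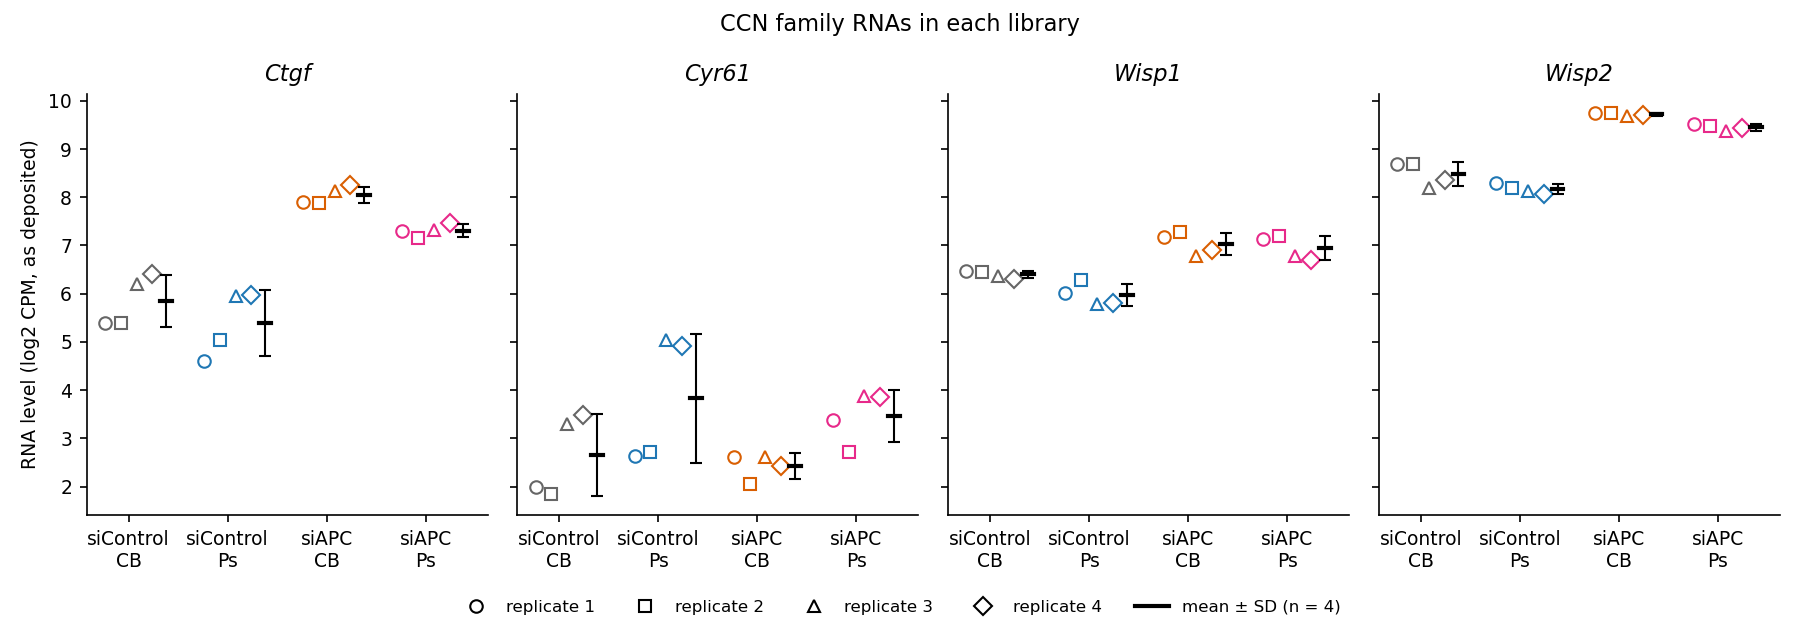
RNA level of each CCN member (log2 CPM as deposited) in the 4 groups, with 1 symbol per library, its shape giving the replicate number, and the mean ± SD beside it. Ctgf, Wisp1 and Wisp2 of siAPC sit above siControl of the same fraction in every library, while Cyr61 of siControl ranges from 1.85 to 3.48 in CB and from 2.64 to 5.04 in Ps and overlaps siAPC.

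Across the whole table, with siAPC 7.52% of genes were called higher in CB beside 5.87% called lower, and 10.7% beside 11.2% in Ps (adjusted p below 0.05). Of the 4 listed members, 3 were called higher and 0 lower in each fraction. All 4 siAPC libraries were above all 4 siControl libraries in 11.1% of genes in CB and 10.9% in Ps, and this held for the same 3 members (Ctgf, Wisp1 and Wisp2) in both. The median log2 fold change over all genes was -0.04 in CB and -0.02 in Ps.

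Cyr61 was the only listed member called higher in protrusions than in cell bodies, in siControl. In siAPC it was not called in the main fit and passed only under some alternatives. In siControl its Ps level was 2.26-fold the CB level (log2 fold change 1.18, SE 0.49, adjusted p = 0.0437), with a difference between same-numbered libraries of 0.65, 0.86, 1.74 and 1.45. Over all genes, however, these numbers did not pair the siControl fractions. The groups overlapped, because replicates 1 and 2 in Ps were below replicates 3 and 4 in CB. The call was lost when replicate 1 or 2 of siControl CB was left out (log2 fold change 0.95 and 0.91) or replicate 3 or 4 of siControl Ps (0.77 and 0.81). It was also lost under 5 other settings, among them scaling to total reads (0.88, adjusted p = 0.153). It was larger with array weights (2.26, adjusted p = 2.91e-05) and without the 4 libraries with lower values for GC-rich transcripts (1.76, adjusted p = 0.0053). In siAPC the Ps level was 2.05-fold the CB level, with no overlap (log2 fold change 1.03, SE 0.49, adjusted p = 0.0732). Same-numbered siAPC libraries deviated together over all genes, although replicate 3 of CB went with replicate 4 of Ps (correlation 0.57) as well as with replicate 3 (0.53). With replicate number as a block the same log2 fold change had an adjusted p of 0.000124 by limma. That fit shares its estimate of the spread with the siControl libraries, whose numbers do not pair.

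Of the other members, Wisp2 was called lower in Ps with either siRNA, Wisp1 in siControl and Ctgf in siAPC. Wisp2 was lower in Ps in siControl (log2 fold change -0.31, SE 0.09, adjusted p = 0.00715) and in siAPC (-0.27, SE 0.09, adjusted p = 0.0165), where the 2 fractions did not overlap. The size depended on the scaling, at -0.61 in siControl with scaling to total reads and -0.55 in siAPC with quantile normalization. Wisp1 was lower in Ps in siControl without overlap (log2 fold change -0.43, SE 0.13, adjusted p = 0.00675, and -0.72 with scaling to total reads). In siAPC its log2 fold change was -0.08 (SE 0.13, adjusted p = 0.602). Ctgf had a log2 fold change of -0.46 in siControl (SE 0.26, adjusted p = 0.127), where its groups overlapped, and was called lower in siAPC (-0.73, SE 0.26, adjusted p = 0.0187), where they did not. The siAPC call of Ctgf was lost without replicate 4 of siAPC CB (-0.67, adjusted p = 0.0533). In siControl the log2 fold change ranged from -0.66 to -0.20 when libraries were left out. It passed the threshold without replicate 3 or 4 of siControl Ps (-0.65 and -0.66), was smallest without replicate 1 of siControl Ps (-0.20), and turned to 0.12 with weights that count variable libraries less. Scaling to total reads also gave a call (-0.76, adjusted p = 0.0288). With replicate number as a block the -0.46 was called (adjusted p = 0.000102), and all 4 same-numbered differences were negative. The replicate numbers do not pair the siControl fractions over all genes.

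Calls between the fractions were common in the whole table. In siControl 29.1% of genes were called higher in Ps and 31.2% lower, and in siAPC 29.8% higher and 30.9% lower. Among the 4 members, 1 was called higher and 2 lower in siControl, and 0 higher and 2 lower in siAPC. All Ps libraries were below all CB libraries in 26.5% of genes in siControl (1 member, Wisp1) and in 30.4% in siAPC (2 members, Ctgf and Wisp2), and above in 28.2% in siAPC (1 member, Cyr61). With 4 members, these counts are near the shares in the whole table.

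Whether Apc knockdown changed the Ps to CB ratio was asked with the interaction term, siAPC minus siControl. No member was called by limma, and 0.0231% of genes (3 genes) were called in the whole table. At an unadjusted p below 0.05 the interaction was positive for 269 genes and negative for 223, with 0 members among them in this fit. The interaction was -0.27 for Ctgf (95% interval -1.03 to 0.49), -0.14 for Cyr61 (-1.58 to 1.30), 0.35 for Wisp1 (-0.03 to 0.72) and 0.04 for Wisp2 (-0.23 to 0.31). Adjusted p-values ran from 0.981 to 0.994, and that of Wisp1 before adjustment was 0.0666. With replicate number as a block the unadjusted p was 0.0028 for Wisp1 and 0.0249 for Ctgf, but their adjusted p-values were 0.697 and 0.875. With array weights the interaction of Ctgf was -0.83 (unadjusted p = 0.00848, adjusted p = 0.301). The intervals of Ctgf and Cyr61 reach past a 2-fold change in the ratio, whereas that of Wisp2 stays within 0.31 on the log2 scale.

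**Figure D2:**
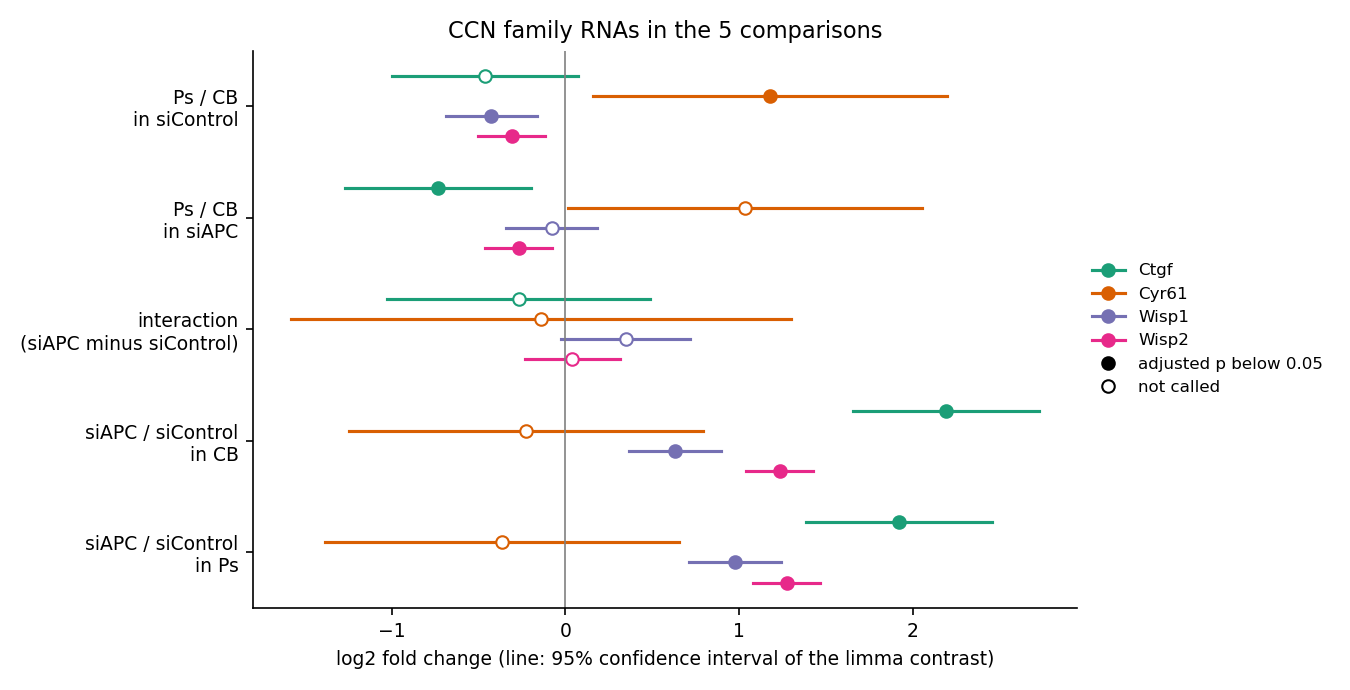
Log2 fold change of each CCN member in the 5 comparisons (dots), with the 95% confidence interval of the limma contrast (lines) and filled dots where the adjusted p was below 0.05. Ctgf, Wisp1 and Wisp2 are filled and above 0 in both siAPC comparisons, Cyr61 is filled only for Ps against CB in siControl at 1.18, and no dot of the interaction is filled.

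Levels of different genes were compared per length, as CPM per kb of the longest annotated transcript. In siControl CB the order was Wisp2 (210.3 ± 36.8 CPM per kb, SD, n = 4), Ctgf (24.4 ± 8.86), Wisp1 (16.6 ± 0.888) and Cyr61 (3.54 ± 1.94). Ctgf and Wisp1 overlapped there. In siControl Ps the levels were 168.1 ± 11.6 for Wisp2, 18.2 ± 7.92 for Ctgf, 12.5 ± 2.09 for Wisp1 and 9.42 ± 7.23 for Cyr61. The 3 lower members overlapped in that group. In siAPC CB they were 489.2 ± 12.2, 106.4 ± 12.8, 25.9 ± 4.03 and 2.70 ± 0.460 in the same order, and in siAPC Ps 406.3 ± 18.2, 63.9 ± 5.94, 24.6 ± 4.23 and 5.74 ± 1.90. With siAPC no neighbours in this order per kb overlapped. In siControl the place of Ctgf above Wisp1 rests on the transcript lengths used, 2490 and 5097 bases. Before division by length, Ctgf was below Wisp1 there (geometric mean 57.8 against 84.6 CPM in CB, 41.9 against 63.0 in Ps). With siAPC, Ctgf was above Wisp1 in CPM too (263.5 against 130.9 in CB, 158.6 against 123.9 in Ps). The summed level of the 4 members was 254.9 ± 28.2 CPM per kb in siControl CB and 624.3 ± 8.26 in siAPC CB, and 208.2 ± 5.61 in siControl Ps and 500.5 ± 18.9 in siAPC Ps.

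**Figure D3:**
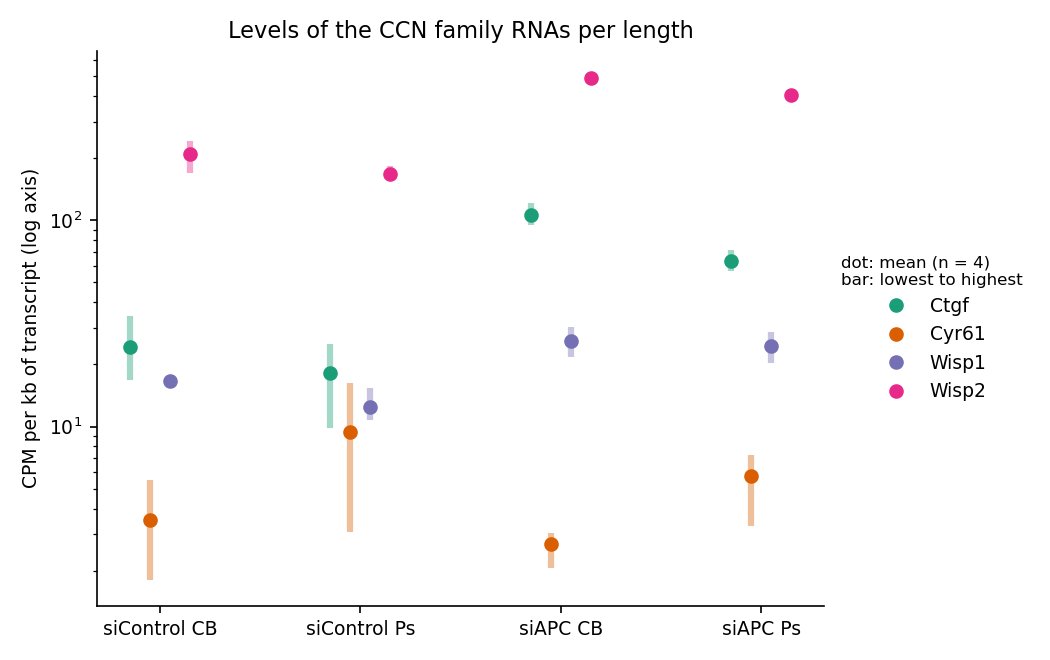
Level of each CCN member in CPM per kb of transcript (log axis) by group, with the mean of 4 libraries as a dot and the lowest to highest library as a bar. Wisp2 is highest in every group, from 168.1 in siControl Ps to 489.2 in siAPC CB, and the bars of Ctgf and Wisp1 overlap in siControl and are apart in siAPC.

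Wisp2 made up most of this total in every group, at 82.1% ± 5.65 (SD, n = 4) in CB and 80.8% ± 6.18 in Ps with siControl, and at 78.4% ± 1.53 in CB and 81.2% ± 0.965 in Ps with siAPC. The share of Ctgf in CB was 9.91% ± 4.4 with siControl and 17.0% ± 2.07 with siAPC, without overlap (exact two-sided permutation p = 0.0286, the smallest that 4 against 4 libraries can give). Over the 20 tests of ratios and shares the adjusted p of this smallest value was 0.0571, so no ratio or share passed after adjustment. The share of Cyr61 in CB was 1.46% ± 0.902 with siControl and 0.433% ± 0.0754 with siAPC (exact permutation p = 0.0286), and that of Wisp1 6.56% ± 0.542 and 4.15% ± 0.623 (exact permutation p = 0.0286). In Ps the shares with siControl and siAPC were 8.71% and 12.8% for Ctgf (exact permutation p = 0.143), 4.48% and 1.15% for Cyr61 (exact permutation p = 0.0571) and 6.02% and 4.90% for Wisp1 (exact permutation p = 0.143). Shares of a total are tied to each other, and their size depends on the transcript lengths used.

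The ratio of Ctgf to Cyr61 within a library does not depend on the scaling between libraries. Its log2 value in siControl CB was 3.42, 3.54, 2.90 and 2.94, and in siAPC CB 5.30, 5.83, 5.50 and 5.82. In siControl Ps it was 1.97, 2.31, 0.91 and 1.05, and in siAPC Ps 3.91, 4.42, 3.44 and 3.61. The groups did not overlap in either comparison of siAPC with siControl (difference 2.41 in CB and 2.29 in Ps) or of Ps with CB (-1.64 in siControl and -1.77 in siAPC). Each of these 4 differences had the smallest possible exact permutation p of 0.0286 and an adjusted p of 0.0571. Leaving out any library left the smallest possible exact p at 0.0571.

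**Figure D4:**
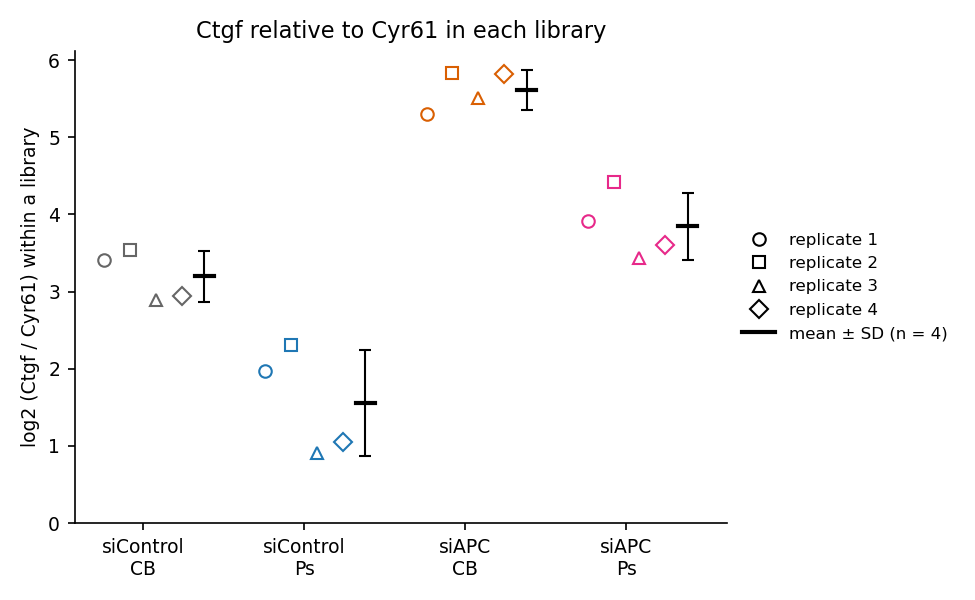
Log2 ratio of Ctgf to Cyr61 within each library by group, with 1 symbol per library and the mean ± SD of 4 libraries. The ratio lies between 2.90 and 3.54 in siControl CB and between 5.30 and 5.83 in siAPC CB, and is lower in Ps than in CB with either siRNA.

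Over the 16 libraries the pattern of Wisp2 was close to that of Wisp1 (Pearson r = 0.917) and of Ctgf (r = 0.871), and Ctgf and Wisp1 had r = 0.760. Cyr61 had r = -0.05 with Ctgf, -0.52 with Wisp1 and -0.39 with Wisp2. These correlations describe libraries that fall into 4 groups. They mix the steps between groups with the spread within them, which for Cyr61 reached an SD of 1.33 in siControl Ps. Among 9599 other genes whose mean log2 value was 1 or more, those most like Ctgf were Cdhr1 (r = 0.981), Spred2 (0.968) and Myo10 (0.966), and those most like Wisp2 included Zc2hc1c (0.985) and Camk2a (0.982). Those most like Wisp1 were Spp1 (0.945), Cd93 (0.941) and Cyp1b1 (0.939). Cyr61 was most like Taf3 (0.922), Anxa2 (0.917) and Fosl1 (0.913). Fosl1, an AP-1 subunit and immediate early gene, had log2 values of 2.82, 2.93, 4.29 and 4.51 in siControl CB. It was picked for its correlation with Cyr61 over these libraries, so having the same 2 low and 2 high libraries follows from that choice. Whether other immediate early genes shared this pattern was not tested.

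Genes of the pathways around the family were counted from fixed lists. The siAPC counts stand beside 7.52% of all genes called higher and 5.87% called lower in CB, and 10.7% and 11.2% in Ps. Of 22 genes in a YAP/TEAD target signature 19 were listed, and 17 without Ctgf and Cyr61. Of those 17, 6 were called with siAPC in CB (4 higher against 2 lower) and 5 in Ps (4 against 1). Their median log2 fold change was 0.02 in CB and -0.07 in Ps, beside -0.04 and -0.02 over all genes. Gadd45a, a growth arrest and DNA damage gene, rose (log2 fold change 1.03 in CB and 1.14 in Ps), and F3, the gene for tissue factor, fell by 0.55 in CB. Of 15 genes for YAP, TAZ, TEADs and Hippo kinases, all listed, 1 was called in each direction in CB and 2 in each direction in Ps, near those shares. The median of this list was -0.03 in CB and -0.08 in Ps. Between fractions, 10 of the 17 YAP/TEAD targets were called lower in Ps and 0 higher in siControl (median -0.67), and 11 lower and 2 higher in siAPC (median -0.45), where 31.2% and 30.9% of all genes were called lower and 29.1% and 29.8% higher.

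Of 13 integrins, syndecan, LRP and other receptors 11 were listed, and 1 was called higher and 1 lower with siAPC in each fraction, near the shares of 7.52% and 5.87% of all genes in CB and of 10.7% and 11.2% in Ps. The higher one was the integrin subunit Itgb5 (log2 fold change 0.65 in CB and 0.67 in Ps), and the lower one was Itga2b (-0.43 and -0.46). The list's median was -0.15 in CB and 0.07 in Ps. Between fractions, 9 of the 11 were called lower in Ps than in CB in siControl and 7 in siAPC, with 0 called higher in either, beside 31.2% and 30.9% of all genes called lower and 29.1% and 29.8% called higher. The median of the receptors was -0.72 in siControl and -0.77 in siAPC, and the lowest values were Notch1 in siControl (-1.53) and Lrp1, an endocytic receptor, in siAPC (-1.55).

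Of 15 other matricellular genes 11 were listed. With siAPC, 4 were called higher against 2 lower in CB, and 5 against 2 in Ps (all genes 7.52% and 5.87% in CB, 10.7% and 11.2% in Ps), with a median log2 fold change of 0.22 and 0.18. Thbs1, the gene for thrombospondin 1, rose (log2 fold change 2.38, SE 0.12, adjusted p = 4.53e-11 in CB, and 2.02, adjusted p = 4.53e-10 in Ps), and Tgfbi fell by 0.59 in CB and by 0.65 in Ps. Between fractions, 8 of the 11 were called lower in Ps in siControl and 9 in siAPC, with 0 called higher. Of all genes, 31.2% and 30.9% were called lower in Ps and 29.1% and 29.8% higher. Of 7 insulin-like growth factor binding proteins, which share a domain with the CCN proteins, 3 were listed. Of these, Igfbp4 (0.80 in CB and 0.78 in Ps) and Igfbp7 (0.74 and 0.80) rose with siAPC and Igfbp6 fell by 0.32 in CB and by 0.38 in Ps.

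Canonical Wnt target genes are of interest because Apc restrains beta-catenin. Of 13 such genes 7 were listed. Of these, Nkd2 and Rnf43, feedback inhibitors of Wnt signalling named here after their values were seen, had 0 reads in all 8 siControl libraries. A gene had to pass an expression minimum in at least 1 library to be listed, so both have rows only through siAPC and are given as a description, with no fold. In siAPC CB, Nkd2 had 83 to 118 reads and Rnf43 25 to 52. Of the other 5 genes, 1 was called higher with siAPC in CB and 2 in Ps, and 0 lower, beside the 7.52% and 5.87% of all genes in CB and the 10.7% and 11.2% in Ps. Their median log2 fold change was 0.33 in CB and 0.23 in Ps. Ccnd1, the gene for cyclin D1, rose with a log2 fold change of 2.30 in CB and 2.18 in Ps.

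Of 22 immediate early genes of LPA and serum, all listed, 2 were called higher against 3 lower with siAPC in CB, and 2 against 1 in Ps (all genes 7.52% and 5.87% in CB, 10.7% and 11.2% in Ps), with a median of -0.01 and -0.03. Hbegf, a growth factor gene, rose (log2 fold change 1.14 in CB and 1.09 in Ps), and Klf6 fell by 0.59 in CB. None of the 22 was called higher in Ps than in CB with either siRNA, and 8 were called lower in each, beside 29.1% and 29.8% of all genes called higher and 31.2% and 30.9% called lower. Of 11 genes of TGF-beta signalling 10 were listed, with 2 called higher against 0 lower in CB and 3 against 1 in Ps, beside the same siAPC shares of all genes (median 0.21 and 0.25). The receptor Tgfbr2 had the highest log2 fold change among those called, 0.73 in CB and 0.84 in Ps.

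**Figure D5:**
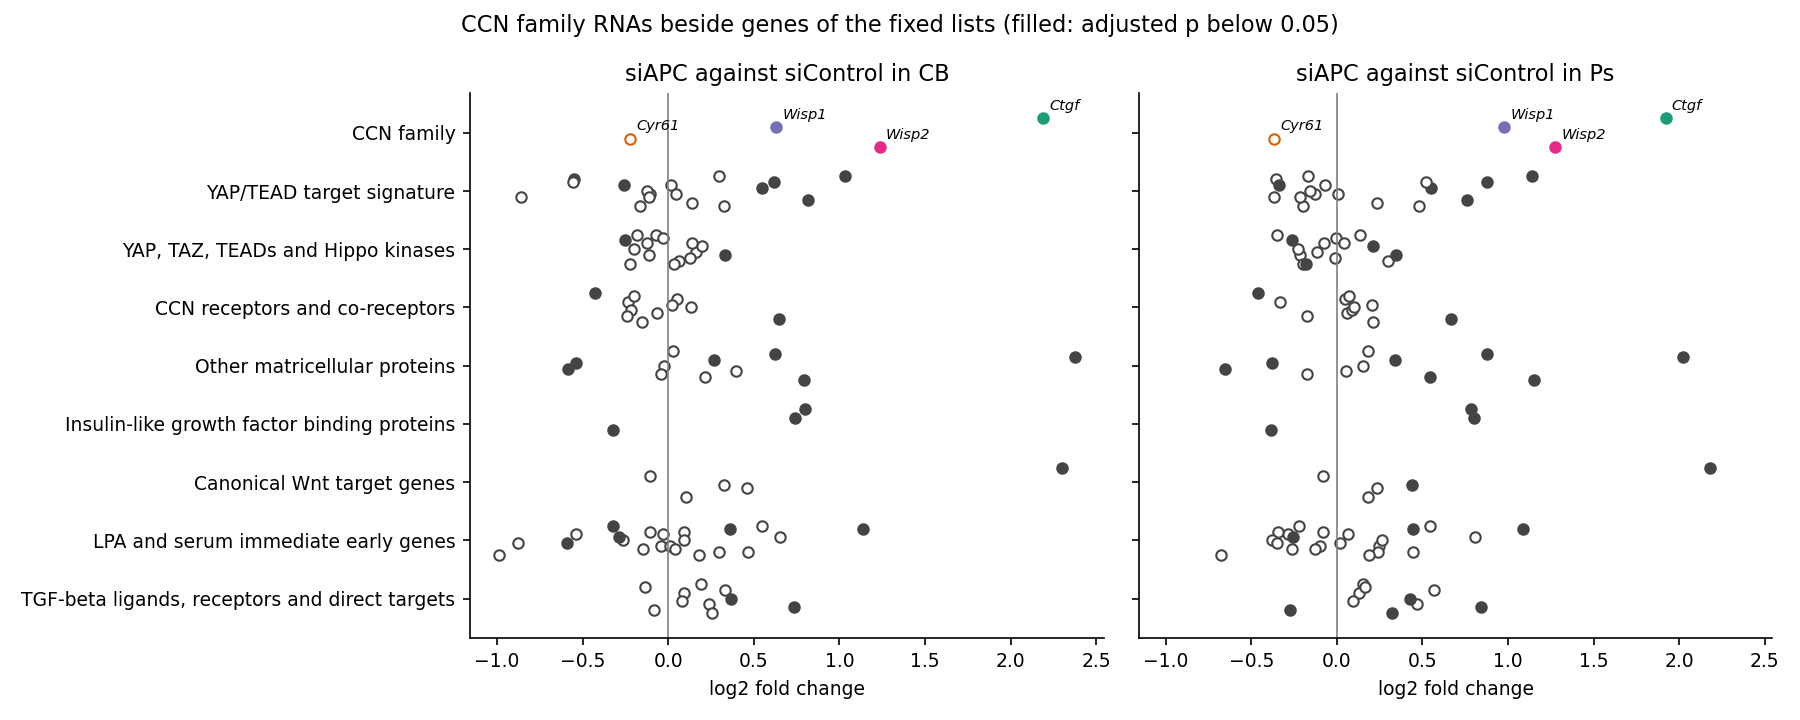
Log2 fold change of siAPC against siControl in CB (left) and Ps (right) for the CCN members and for the listed genes of 8 fixed lists without the members, with 1 dot per gene and filled dots where the adjusted p was below 0.05. Nkd2 and Rnf43 are not drawn because all their siControl libraries had 0 reads. Ctgf (2.19 and 1.92) lies near Thbs1 (2.38 and 2.02) and Ccnd1 (2.30 and 2.18), and Cyr61 (-0.22 and -0.37) is not called.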

How the data were processed

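RNA was sequenced from 16 libraries of protrusions and cell bodies of siControl and siAPC cells, 4 per group. Per the study's methods, the authors made stranded libraries, aligned paired reads with STAR 2.4.2a to mm10 with a GENCODE annotation, counted genes with Rsubread and normalized with limma-voom (limma 3.26.1). The deposited values are log2 CPM, (reads + 0.5) relative to an effective library size scaled between libraries. Inverting this gave whole reads (within 0.1) for 100% of the 208240 values, with 13466225 to 20296087 listed reads per library. Reads carry no molecular identifiers, so the floors cover counting error only, while the intervals come from limma and cover the spread between libraries. The 3 reads taken as the smallest detectable number are a convention. Fold changes are on this log2 scale, which understates changes of low genes.

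Groups came from the labels. All 13015 genes were fitted with limma 3.58.1 (R 4.3.3, lmFit and eBayes with an intensity trend, 1 mean per group over 16 libraries), with Benjamini-Hochberg adjustment over all genes, and called at an adjusted p below 0.05. The script was tested on simulated data. Ratios and shares were compared by exact two-sided permutation tests (scipy 1.17.1). The members and lists were chosen with earlier results of these data known. Genes named beside the members were, per list and comparison, at most the highest and lowest called gene (mean log2 value 1 or more), and the 3 genes with the highest Pearson correlation to a member, leaving out predicted genes. Of these, 1 gene is not reported here. Also named were Apc, the overlapping Gm15270, cell type markers, the called binding protein genes, and Nkd2 and Rnf43; all but Apc were chosen after their values were seen.

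Replicate numbers were checked by the correlation, over 10292 genes, between libraries of the same number after subtracting each group's mean. Every pair was above 0.1 for siAPC CB with siAPC Ps (mean 0.50) and for siControl Ps with siAPC Ps (mean 0.34). This did not hold for siControl CB with siControl Ps (mean 0.13) or with siAPC CB (mean -0.03). Replicates were compared, and no 2 agreed within sampling noise (chi-squared per degree of freedom 1.96 to 25.26 over 24 pairs). Alternatives were another scaling, quantile normalization, voom or array weights, a larger prior count, a filter on low genes, no trend, the compared libraries alone, the replicate block and leaving out libraries.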

Additional observations from a re-analysis of the deposited data

Results flagged for a closer look

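The share of Wisp1 in the family total in siControl CB held 1 library far from the others. Replicate 3 had a share of 7.37%, while the other 3 libraries lay between 6.21% and 6.37%. Of 36 groups of 4 libraries examined 1 was marked in this way, and chance alone marks about 1 group in 20.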

How the results depend on the processing

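The higher levels of Ctgf, Wisp1 and Wisp2 with siAPC were called in both fractions under all 18 alternatives each, with ranges of 2.04 to 2.42, 0.54 to 0.71 and 1.11 to 1.47 in CB and of 1.59 to 2.12, 0.89 to 1.14 and 1.24 to 1.44 in Ps. The lower Ps levels of Wisp1 in siControl and of Wisp2 with either siRNA were also called under all 18, from -0.72 to -0.36 for Wisp1, and for Wisp2 from -0.61 to -0.24 in siControl and from -0.55 to -0.24 in siAPC. The lowest of these came with scaling to total reads in siControl and with quantile normalization in siAPC. The call of Cyr61 for Ps against CB in siControl was lost with scaling to total reads (log2 fold change 0.88), quantile normalization (1.15), voom weights (1.2), the 8 compared libraries alone (1.18) and no intensity trend (1.18), with adjusted p-values from 0.05 to 0.153. Its adjusted p over all alternatives ran from 2.91e-05 to 0.171. In siAPC the same comparison was called with array weights (1.19) and the 8 compared libraries alone (1.03). Ctgf for Ps against CB in siControl was called with scaling to total reads (-0.76) and turned to 0.12 with array weights. Scaling to total reads moved the median of all genes by -0.30 in this comparison, by -0.16 for Ps against CB in siAPC, by 0.14 in the interaction and by 0.16 for siAPC in Ps, so that Ctgf and Cyr61 kept their distance to the other genes. Cyr61 with siAPC in CB turned to 0.18 with array weights and to 0.11 without the 4 libraries that fell with GC content. Its interaction turned to 0.000863 with scaling to total reads, and was -1.06 with array weights and -0.60 without those 4 libraries. Wisp1 for Ps against CB in siAPC turned to 0.00392 and the interaction of Wisp2 to -0.19 with quantile normalization. The cause was not tested.

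With replicate number as a block, Ctgf for Ps against CB in siControl was called (-0.46, adjusted p = 0.000102), as was Cyr61 in siAPC (1.03), and the block changed no other call of a member. In siControl the numbers do not pair the fractions by the check over all genes, so the first of these rests on the number alone. The call of Cyr61 in siAPC shares its estimate of the spread with those siControl libraries.

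Leaving out each library in turn gave the following ranges. For Ps against CB these were -0.79 to -0.67 for Ctgf in siAPC, -0.66 to -0.20 for Ctgf in siControl, 0.90 to 1.28 for Cyr61 in siAPC (called without replicate 2 of siAPC Ps), 0.77 to 1.57 for Cyr61 in siControl and -0.16 to 0.00414 for Wisp1 in siAPC. The interaction ranged from -0.53 to -0.07 for Ctgf (lowest without replicate 1 and highest without replicate 4 of siControl Ps), from -0.54 to 0.26 for Cyr61 and from -0.0327 to 0.14 for Wisp2. Cyr61 with siAPC ranged from -0.49 to 0.0499 in CB (above 0 without replicate 4 of siControl CB) and from -0.76 to 0.0365 in Ps (above 0 without replicate 3 of siControl Ps). In Ps it was -0.88 with array weights (adjusted p = 0.0899). In percentage points, the Ps minus CB difference in siControl ranged from -2.46 to 0.18 for the share of Ctgf and from -3.61 to 0.55 for that of Wisp2, and the siAPC minus siControl difference in Ps from -1.47 to 2.69 for that of Wisp2 and from -1.44 to -0.58 for that of Wisp1 (nearest 0 without replicate 2 of siControl Ps). Over all 10 alternatives, the siAPC minus siControl difference in the share of Wisp1 ran from -4.43 to -2.14 in CB. In Ps the difference in the share of Wisp1 ran from -2.10 to -0.58.

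Cyr61 had the fewest reads of the members, 61 to 498 per library.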
